A study of Mus musculus with 2 samples.

Results

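The genes described here are 33 genes of glycolysis and of the response to low oxygen, followed in RNA from cultured mouse pro-B cells labelled Setdb1 C/C and Setdb1 Δ/Δ. Setdb1 encodes a histone H3 lysine 9 methyltransferase that silences retroviral sequences. They were chosen by symbol from a list of glucose and lactate transporters, glycolytic enzymes, the kinases that regulate them, and the oxygen sensors and targets of hypoxia-inducible factor (HIF). All 33 were found among 36980 genes of the deposited table. C/C is read here as the undeleted control and Δ/Δ as the deleted genotype, and both groups carried a bcl2 transgene (bcl2-tg). Both came from bone marrow cells sorted by flow cytometry, and RNA was taken on day 4 of culture with interleukin 7 at 5 ng/µl. The labels give no age, strain or sex, no promoter for the transgene, no time or agent of the deletion, and no number of animals. Each group is 1 library, so differences are between 2 libraries, no replicate checks them, and p-values are not given. In these bulk samples, fewer cells of a type and less RNA per cell cannot be told apart.

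Glycolysis splits glucose into pyruvate in the cytosol. Cells that divide fast, such as B cell precursors under interleukin 7, are known to turn much of the pyruvate into lactate and export it. HIF-1 is a pair of proteins, an oxygen-labile alpha subunit (HIF1A) and ARNT. With oxygen, the prolyl hydroxylases encoded by the Egln genes mark the alpha subunit for destruction by the VHL ubiquitin ligase. Without oxygen it binds DNA and raises transcription of glycolytic enzymes, transporters and the Egln genes themselves.

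Values are RPKM, which divide the reads of a transcript by its length and by the depth of the library. Levels of different genes within a library can thus be set side by side, but only roughly. Each gene is read from 1 transcript, and its level and share depend on which. Vegfa in C/C measured 203 RPKM from its highest transcript and 83.1 RPKM from its longest coding one. The depths, recovered from the values, were 170.6 M reads (megareads) for C/C and 193.3 M reads for Δ/Δ. Genes that reached 1 RPKM in either library count as measured. The difference is log2((Δ/Δ + 0.5) / (C/C + 0.5)). Genes at 1 or above are called higher in Δ/Δ and genes at -1 or below lower. Ratios are plain RPKM ratios, and their 95% intervals are exact Poisson intervals that cover counting error only.

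Several features of the libraries touch all of these genes. Setdb1 itself measured 17.0 RPKM in C/C against 12.6 RPKM in Δ/Δ (ratio 0.743), over a whole transcript. The deleted part of the gene is not given in the sources used here, so this value does not check the deletion. All 12 pro-B cell markers were measured in both libraries. Their summed level was 4673 RPKM in C/C against 3388 RPKM in Δ/Δ, with 0 higher and 4 lower (33.3%). By the same thresholds 6.28% of all measured genes were higher and 6.66% lower. Among the most abundant of them, Igll1 (785 and 766 RPKM) and Vpreb1 (745 and 893 RPKM), parts of the surrogate light chain, were within the rule. Cd79b, which signals for the B cell receptor, was lower (1372 and 651 RPKM). Neutrophil and macrophage markers summed to 32.3 RPKM in C/C against 255 RPKM in Δ/Δ over 18 genes. Of the 13 measured, 10 were higher (76.9%), led by Lyz2 (9.01 and 120 RPKM), S100a9 (5.44 and 56.2 RPKM) and S100a8 (0.463 and 30.8 RPKM). Mpo and Elane were listed at 0 in C/C. Dendritic cell markers summed to 1.55 and 13.0 RPKM over 8 genes and erythroid and megakaryocyte markers to 9.31 and 77.8 RPKM over 11. Of these, 4 and 7 were measured, and 4 (100%) and 6 (85.7%) were higher, again beside 6.28% of all measured genes. Marker genes low in C/C count as measured only where they are high in Δ/Δ, so the filter favours higher genes in these counts. T cell markers summed to 1.08 and 5.06 RPKM, NK cell markers to 2.10 and 2.27 RPKM, and stromal and endothelial markers to 0.895 and 0.697 RPKM. The libraries also differed in sex markers, with Xist at 0.0940 RPKM in C/C against 23.7 RPKM in Δ/Δ and the Y-linked Ddx3y at 10.2 and 0.00900 RPKM. Genotype and sex therefore cannot be told apart, and the part of other cell types in the differences below was not tested.

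Of the 33 genes, 32 were measured. By the size rule, 4 were lower in Δ/Δ: the lactate exporter gene Slc16a3, the glucose transporter gene Slc2a3, the prolyl hydroxylase gene Egln3 and the HIF target Ankrd37. Hif1a was the 1 higher gene, and the other 27 stayed within the rule. As shares, 12.5% of the measured genes of the group were lower, where 6.66% of all 12556 measured genes were, and 3.13% were higher, where 6.28% of all were. Their median log2 difference was -0.19 beside -0.09 for all measured genes, with 23 below 0 and 9 above 0. Of all measured genes 7249 were below 0 and 5303 above, and about the all-gene median the group split into 19 below and 13 above. From the longest coding transcript of each gene the same 4 genes were lower and 0 higher, beside 4.44% lower and 5.32% higher of all 10411 genes with such a value.

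**Figure D1:**
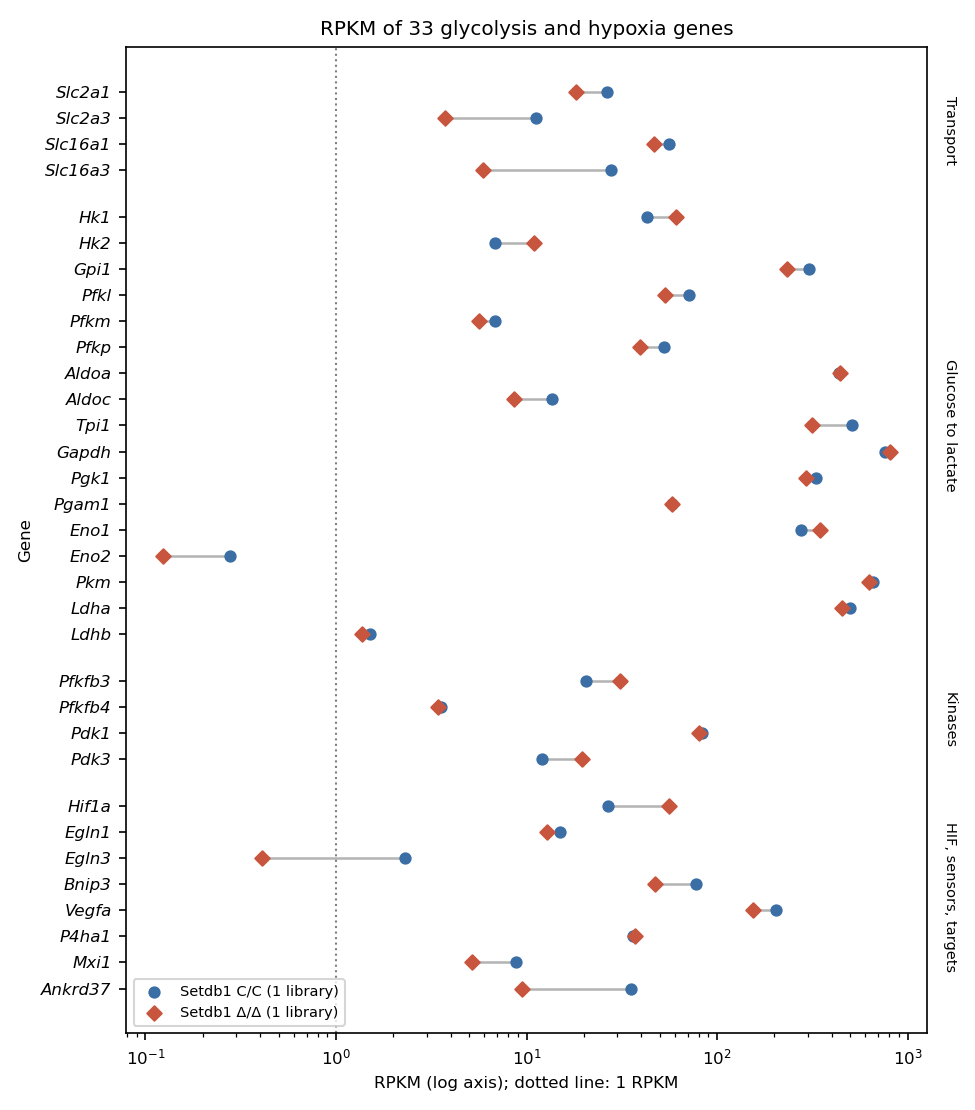
RPKM of each of the 33 genes (horizontal axis, log scale) in the Setdb1 C/C library (circles) and the Setdb1 Δ/Δ library (diamonds), in groups by role. Many pairs lie close together, from Gapdh at 757 and 813 RPKM down to Ldhb at 1.51 and 1.36 RPKM, while Slc16a3, Slc2a3, Egln3 and Ankrd37 lie well apart.

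**Figure D2:**
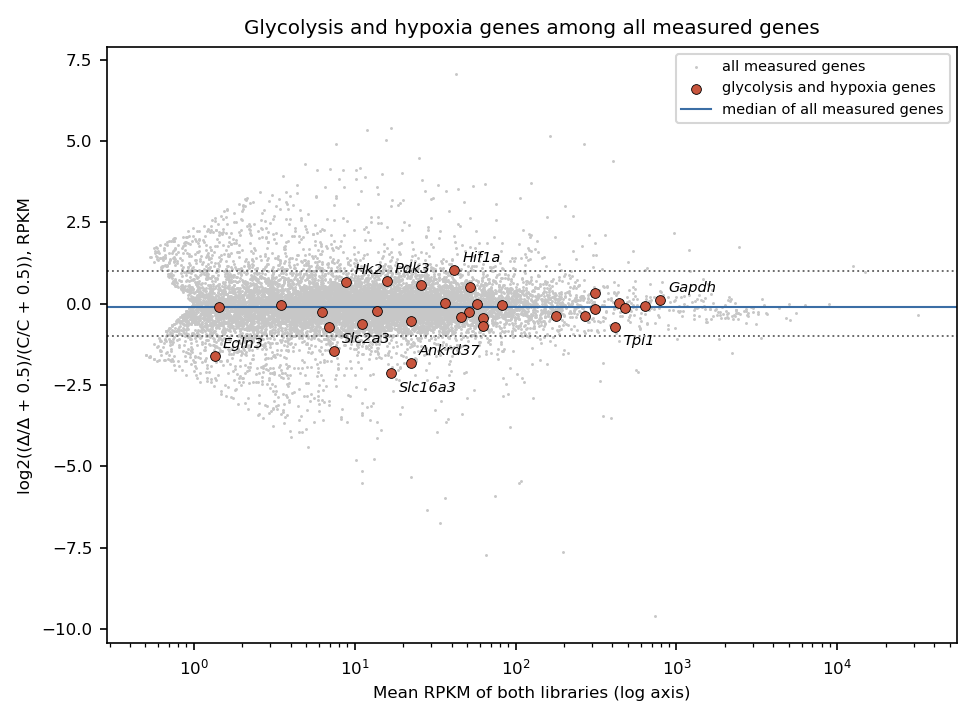
Each grey point is 1 of 12556 measured genes, with its mean RPKM on a log axis and its log2 difference between the libraries, and the 32 measured glycolysis and hypoxia genes stand in red. Dotted lines mark the size rule, and the 4 lower genes and Hif1a lie beyond them.

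The stretches upstream of the genes that passed the size rule are shown because HIF is known to bind a short core sequence near its targets. The core was searched as ACGTG and GCGTG on both strands in the 250 bases before each RefSeq start (GRCm38.p6), and a match overlaps the E-box CACGTG where a C precedes ACGTG. Windows were found for 32 of the 33 genes, and Slc2a3 had none. Capitals mark the matches. Bases that lie in an annotated exon were left out. Ldha, whose level was alike in both libraries, is added for comparison with the first of its windows.
Slc16a3, chr11:120948817-120949052, plus strand: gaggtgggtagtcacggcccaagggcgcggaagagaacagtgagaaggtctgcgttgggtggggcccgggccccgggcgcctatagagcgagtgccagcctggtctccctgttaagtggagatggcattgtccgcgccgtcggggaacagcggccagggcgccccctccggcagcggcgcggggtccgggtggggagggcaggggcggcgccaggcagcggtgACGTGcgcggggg
Egln3, chr12:54203875-54204124, minus strand: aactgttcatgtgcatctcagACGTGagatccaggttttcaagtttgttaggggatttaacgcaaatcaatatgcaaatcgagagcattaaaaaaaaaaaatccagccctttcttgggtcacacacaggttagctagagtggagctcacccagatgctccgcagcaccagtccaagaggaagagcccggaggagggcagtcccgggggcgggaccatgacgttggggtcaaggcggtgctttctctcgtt
Ankrd37, chr8:45999868-46000100, minus strand: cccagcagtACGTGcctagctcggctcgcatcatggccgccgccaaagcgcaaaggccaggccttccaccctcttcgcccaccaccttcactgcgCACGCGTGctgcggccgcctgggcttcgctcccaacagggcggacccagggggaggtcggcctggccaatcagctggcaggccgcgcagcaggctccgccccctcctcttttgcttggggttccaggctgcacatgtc
Hif1a, chr12:73907617-73907866, plus strand: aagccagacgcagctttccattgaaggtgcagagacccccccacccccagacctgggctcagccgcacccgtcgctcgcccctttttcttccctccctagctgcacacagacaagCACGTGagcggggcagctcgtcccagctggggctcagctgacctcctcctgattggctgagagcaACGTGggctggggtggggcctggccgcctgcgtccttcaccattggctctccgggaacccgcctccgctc
Ldha, chr7:46845554-46845803, plus strand: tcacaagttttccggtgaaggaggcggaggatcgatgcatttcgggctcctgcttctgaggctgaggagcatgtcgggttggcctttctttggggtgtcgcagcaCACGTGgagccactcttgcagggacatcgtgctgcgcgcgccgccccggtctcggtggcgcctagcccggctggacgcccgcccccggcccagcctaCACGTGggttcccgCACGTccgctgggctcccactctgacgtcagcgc

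The stretch of Slc16a3 holds 1 match, that of Egln3 1, that of Ankrd37 3, that of Hif1a 3 and that of Ldha 5, counting each strand. In Hif1a 1 pair and in Ldha 2 pairs of these are the E-box read on both strands. With the bases left out as exon, the whole windows of Slc16a3 and Ankrd37 hold 2 and 4 matches. The second Ldha window, not printed, holds 1. Of the 48 windows of the glycolysis and hypoxia genes, 38 (79.2%) held a match. The share was 38.6% of all 32851 RefSeq windows of this length and 56.5% of the 11292 windows of measured genes. The median GC content was 61% in the windows of the group, 52.4% in all windows and 59.6% in those of measured genes. Among windows of genes within the size rule, 34 of 43 (79.1%) held a match, as did those of the lower genes Slc16a3, Egln3 and Ankrd37. A match is a description of these letters and does not show a bound site.

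Transporters take glucose in and carry lactate out. SLC16A3 (MCT4) exports lactate and is known as a HIF target. Slc16a3 (ENSMUST00000154187, chr11:120949053-120956747, plus strand, GRCm38) measured 27.8 RPKM in C/C against 5.91 RPKM in Δ/Δ. The Δ/Δ library was 4.70-fold lower (ratio 0.213, interval 0.194 to 0.233), from 4616 and 1112 reads. All 8 listed Slc16a3 transcripts had ratios below 1, from 0.211 to 0.365. Slc16a1 encodes MCT1, the lactate carrier of most cells, and measured 55.9 and 46.5 RPKM (ratio 0.831, interval 0.815 to 0.848). Slc16a3 held 33.2% of their summed RPKM in C/C and 11.3% in Δ/Δ, and the sum was 83.7 RPKM in C/C against 52.4 RPKM in Δ/Δ. From the longest coding transcripts, where Slc16a3 measured 13.1 and 2.85 RPKM, its share was 18.9% and 5.77% of sums of 69 and 49.4 RPKM.

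The glucose transporter genes differed in a like pattern. Slc2a3 encodes GLUT3, a high-affinity glucose transporter (ENSMUST00000166135, chr6:122729931-122742390, minus strand). It measured 11.1 RPKM in C/C against 3.72 RPKM in Δ/Δ, 2.996-fold lower (ratio 0.334, interval 0.300 to 0.371). Its 8 transcripts gave ratios of 0.203 to 0.402. Slc2a1, which encodes GLUT1, the main glucose transporter of dividing lymphocytes, measured 26.4 and 18.1 RPKM (ratio 0.686, interval 0.658 to 0.716). It stayed within the size rule, and 105 of its bases overlap Gm12868 on the other strand. Slc2a1 made up 70.3% of the summed RPKM of the pair in C/C and 83.0% in Δ/Δ, and the sum went from 37.6 to 21.9 RPKM. All 4 transporter genes thus had lower values in Δ/Δ, and 2 of them passed the rule. Beside them, 7249 of all 12556 measured genes had log2 differences below 0, and 6.66% were lower by the rule. In the same libraries the summed pro-B cell markers were also lower in Δ/Δ (4673 and 3388 RPKM, 4 of 12 lower by the rule) and the summed neutrophil and macrophage markers higher (32.3 and 255 RPKM). Their part in the transporter values was not tested.

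**Figure D3:**
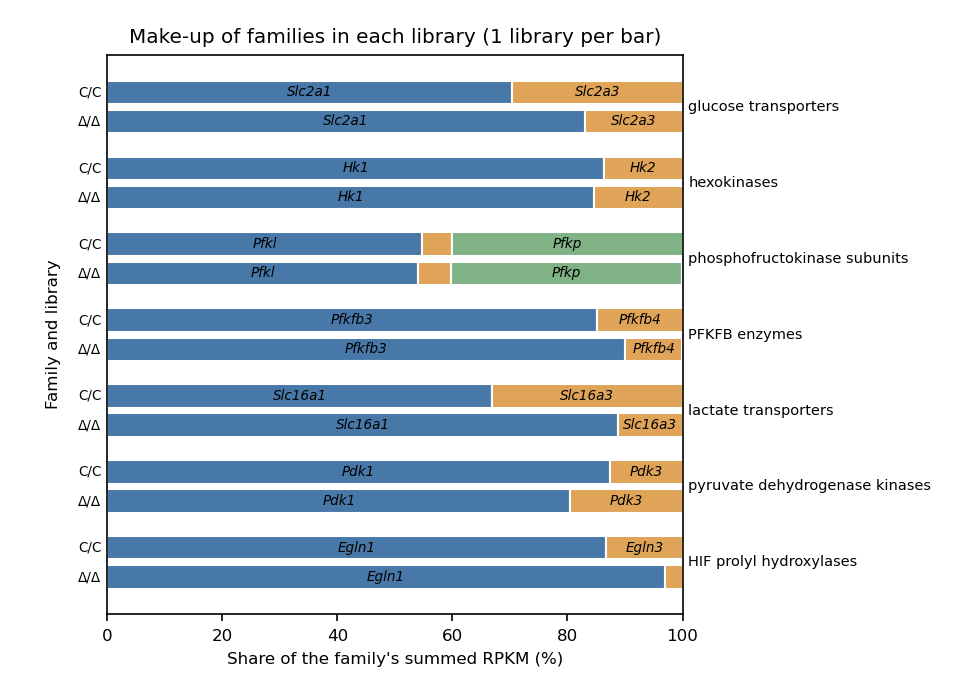
Share of the summed RPKM (horizontal axis, %) that each gene, read from its transcript of highest mean RPKM, took within 7 families, in the C/C library (upper bar of each pair) and the Δ/Δ library (lower bar); the segments too narrow for a name are Pfkm and, in Δ/Δ, Egln3. The bars shift most for the lactate transporters, where Slc16a3 goes from 33.2% to 11.3%, and hardly for the phosphofructokinase subunits.

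None of the 16 measured enzymes of the route from glucose to lactate passed the size rule, and 13 of them lay within 0.5 of 0 on the log2 scale. Of all measured genes 12.9% passed the rule in either direction, and whether these enzymes differ from that share was not tested. Their median log2 difference was -0.12. The summed RPKM of all 17 genes was 4023 in C/C and 3761 in Δ/Δ.

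The entry step showed higher values in Δ/Δ. Hexokinases trap glucose as glucose 6-phosphate. Hk1, the form of most tissues, measured 42.9 RPKM in C/C against 60.7 RPKM in Δ/Δ (ratio 1.41, interval 1.35 to 1.48), and its 20 transcripts gave 1.32 to 1.78. Hk2, the inducible form and a HIF target, measured 6.79 and 10.99 RPKM (ratio 1.62, interval 1.52 to 1.72). Hk1 remained the major form, at 86.3% and 84.7% of the pair. Hk3, a hexokinase of myeloid cells outside the group, measured 0.130 RPKM in C/C against 1.33 RPKM in Δ/Δ, and was called higher. Neutrophil and macrophage markers were 32.3 and 255 RPKM in sum in the same libraries, and their part in the hexokinase values was not tested.

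The next steps had lower values in Δ/Δ, all within the rule. Gpi1 (glucose 6-phosphate isomerase) measured 305 and 234 RPKM (ratio 0.767, interval 0.759 to 0.775), with 356 bases that overlap Gm26762 on the other strand. The phosphofructokinase subunit genes had ratios near each other, at 0.741 for Pfkl, 0.822 for Pfkm and 0.754 for Pfkp. Their make-up stayed alike, with Pfkl at 54.7% and 54.0% of the summed RPKM, Pfkp at 40.03% and 40.22% and Pfkm at 5.24% and 5.74%. Phosphofructokinase is the main control point of the pathway. Tpi1, triosephosphate isomerase, stood furthest from 0 among the enzymes. It measured 513 RPKM in C/C against 313 RPKM in Δ/Δ (ratio 0.611, interval 0.595 to 0.627), and its 5 transcripts gave 0.600 to 0.648.

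Aldolase A, which cleaves fructose 1,6-bisphosphate, was alike in both libraries. Aldoa measured 437 RPKM in C/C against 441 RPKM in Δ/Δ (ratio 1.009, interval 0.993 to 1.03). Of its 11 transcripts, 10 gave 0.960 to 1.04, and a separate upstream one gave 0.448 from 382 and 194 reads. Aldoc, the form known from brain, measured 13.6 and 8.59 RPKM (ratio 0.633, interval 0.572 to 0.701) and gave 3.01% and 1.91% of the aldolase RPKM (1.77% and 1.22% from the longest coding transcripts).

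The steps from Gapdh to Pgam1 differed little. Gapdh, the dehydrogenase often used as a reference gene, measured 757 RPKM in C/C against 813 RPKM in Δ/Δ (ratio 1.07, interval 1.06 to 1.09). It ranked 128 and 122 among all measured genes. Its 12 transcripts gave ratios of 0.963 to 1.17, so the side of 1 depends on the transcript. Pgk1, phosphoglycerate kinase on the X chromosome, measured 329 and 295 RPKM (ratio 0.897). Pgam1, phosphoglycerate mutase, measured 58.2 and 57.7 RPKM (ratio 0.991, interval 0.963 to 1.02) and was the step of lowest level in this stretch. Each of these genes differed by far less than 2-fold.

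Enolase had a higher value in Δ/Δ. Eno1, the common enolase, measured 275 RPKM in C/C against 346 RPKM in Δ/Δ (ratio 1.26, interval 1.23 to 1.28). All 11 Eno1 transcripts had ratios above 1, from 1.14 to 1.35. Eno2, the neuronal form, was the gene not measured, at 0.278 and 0.123 RPKM from 30 and 15 reads. The interval of its ratio ran from 0.173 to 1.18, so no difference was detectable in this transcript at this depth. The 6 Eno2 transcripts with at least 40 reads gave ratios of 0.293 to 0.474. Processed pseudogenes of Gapdh, Pgk1, Aldoa, Ldha and other abundant enzymes are known in the mouse genome, and reads placed on them make these values uncertain.

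The last steps were alike. Pkm, pyruvate kinase, measured 655 RPKM in C/C against 627 RPKM in Δ/Δ (ratio 0.957, interval 0.950 to 0.964), at ranks 148 and 149. In it 167 bases overlap Gm49759 on the same strand. Ldha, the lactate dehydrogenase subunit that favours lactate, measured 498 and 455 RPKM (ratio 0.912). Ldhb, the heart subunit, measured 1.51 and 1.36 RPKM (ratio 0.904, interval 0.726 to 1.13). Ldha made up 99.7% of the summed lactate dehydrogenase RPKM in each library. The terminal enzyme of lactate production thus differed by under 10% while the exporter gene Slc16a3 was 4.70-fold lower. Slc16a1, with 66.8% (C/C) and 88.7% (Δ/Δ) of the summed RPKM of these lactate transporter genes, had a ratio of 0.831.

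Of the regulatory kinase genes, 0 of 4 passed the rule, beside 12.9% of all measured genes. PFKFB enzymes make and break fructose 2,6-bisphosphate, the strongest activator of phosphofructokinase. Pfkfb3, the form with the highest kinase activity, measured 20.5 RPKM in C/C against 30.9 RPKM in Δ/Δ (ratio 1.504, interval 1.44 to 1.57). Its 14 transcripts gave 1.504 to 1.56. Pfkfb4 measured 3.57 and 3.41 RPKM (ratio 0.957, interval 0.878 to 1.04). Pyruvate dehydrogenase kinases keep pyruvate out of the mitochondrial cycle. Pdk1, a HIF target, measured 82.9 and 80.8 RPKM (ratio 0.975, interval 0.922 to 1.03) in a processed transcript of 327 bases. The other 7 Pdk1 transcripts gave ratios of 1.05 to 1.27, and the longest coding one measured 28.1 and 29.6 RPKM, so the side of 1 depends on the transcript. Pdk3 measured 12.01 and 19.55 RPKM (ratio 1.63, interval 1.54 to 1.72). Pdk3 lies on the X chromosome, as does Pgk1 (ratio 0.897), and Xist differed between the libraries as given above. Genotype and sex cannot be told apart, and the part of sex in the Pdk3 value was not tested. Pdk3 took 12.7% of the pair's RPKM in C/C and 19.5% in Δ/Δ when Pdk1 was read from its 327-base transcript. From the longest coding transcripts the Pdk3 share was 29.9% and 39.8%.

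**Figure D4:**
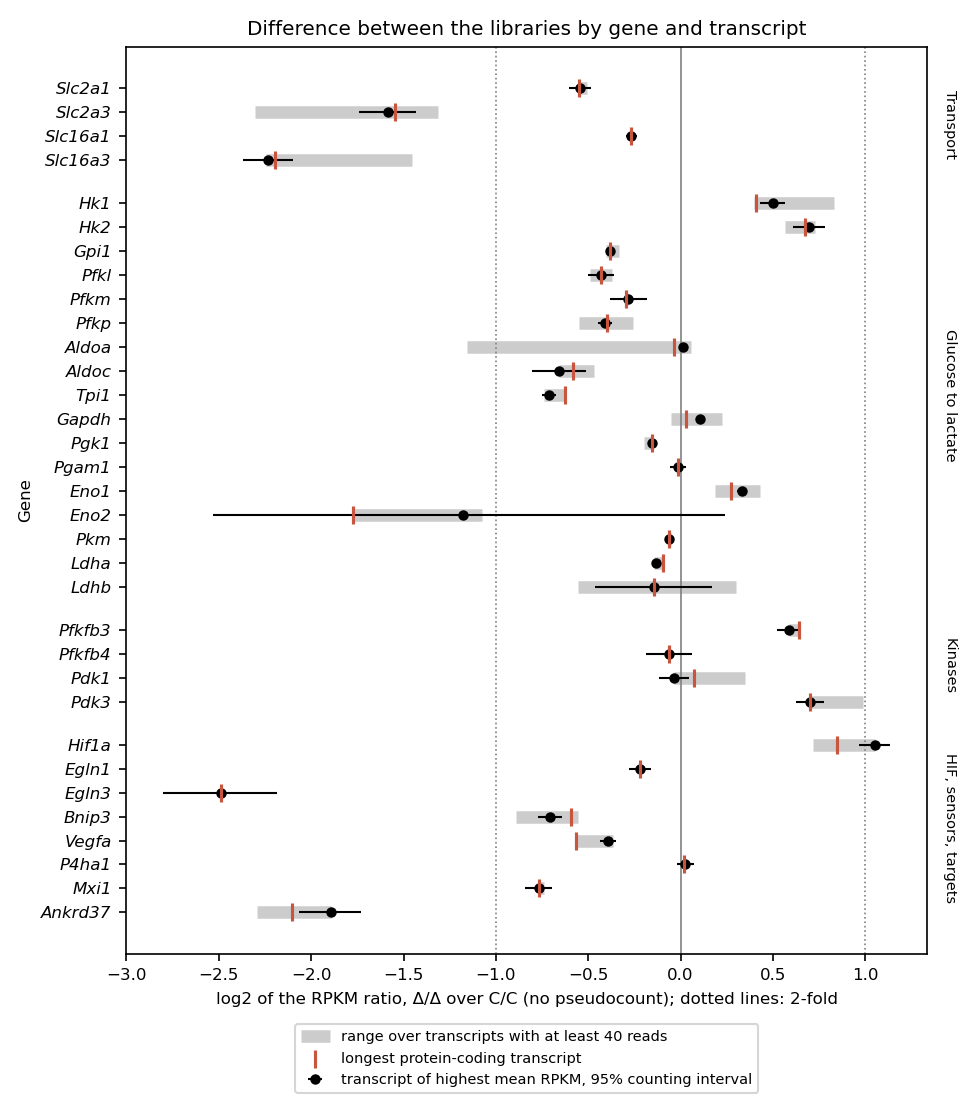
log2 of the plain RPKM ratio, Δ/Δ over C/C, for each gene. Black points are the transcript of highest mean RPKM with its 95% counting interval, red ticks the longest coding transcript, and grey bars the range over transcripts with at least 40 reads. For Slc16a3, Slc2a3, Egln3 and Ankrd37 all listed transcripts lie beyond the lower dotted line of 2-fold, whereas only 1 of 5 Hif1a transcripts lies beyond the upper one.

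The oxygen sensors and HIF targets held both directions. Hif1a (chr12:73926602-73928532, plus strand) measured 26.9 RPKM in C/C against 55.7 RPKM in Δ/Δ (ratio 2.07, interval 1.95 to 2.20), a log2 difference of 1.04. That value came from a retained-intron transcript of 693 bases, ENSMUST00000149740. In it 146 bases overlap Gm15283 on the other strand, and the labels do not say that strand was kept. The longest coding transcript measured 27.5 and 49.6 RPKM, a log2 difference of 0.84, which is within the rule. The 5 Hif1a transcripts gave ratios of 1.65 to 2.07, so each had a higher value in Δ/Δ but the call rests on 1 transcript. HIF1A is controlled mostly through protein stability, which RNA does not measure.

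The prolyl hydroxylase genes differed from each other. Egln3 encodes PHD3, whose gene is itself induced by HIF (ENSMUST00000039516, chr12:54178981-54203860, minus strand). It measured 2.29 RPKM in C/C against 0.408 RPKM in Δ/Δ, 5.61-fold lower (ratio 0.178, interval 0.143 to 0.220), from 1040 and 210 reads. Egln3 thus reached 1 RPKM in C/C alone. Egln1, the main oxygen sensor PHD2, measured 14.9 and 12.8 RPKM (ratio 0.858, interval 0.823 to 0.894). Egln3 made up 13.3% of the pair's RPKM in C/C and 3.09% in Δ/Δ.

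Ankrd37, a short ankyrin repeat gene known as a HIF target, was the other gene called lower (ENSMUST00000144525, chr8:45996965-45997868, minus strand). It measured 35.2 RPKM in C/C against 9.45 RPKM in Δ/Δ, 3.72-fold lower (ratio 0.269, interval 0.239 to 0.302). Its 5 transcripts gave 0.204 to 0.269, and the coding one went from 33.4 to 7.79 RPKM.

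The remaining HIF targets stayed within the rule. Bnip3, which encodes a mitophagy receptor, measured 77.4 RPKM in C/C against 47.4 RPKM in Δ/Δ (ratio 0.613, interval 0.586 to 0.641). In it 162 bases overlap Gm45507 on the other strand. Mxi1, a MYC antagonist of the MAX network, measured 8.77 and 5.15 RPKM (ratio 0.587, interval 0.558 to 0.618), with 194 bases that overlap Gm10197 on the other strand. Vegfa, the angiogenic growth factor, measured 203 and 154 RPKM (ratio 0.761, interval 0.738 to 0.785). Its 11 transcripts gave 0.673 to 0.775. P4ha1, a collagen prolyl hydroxylase subunit, measured 36.3 and 36.9 RPKM (ratio 1.02, interval 0.987 to 1.05). From Egln3 to P4ha1 these HIF targets thus ranged from 5.61-fold lower to nearly equal.

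Genes next to these in the pathways were taken from lists by pathway. Among 43 other HIF targets 31 were measured, of which 5 were lower (16.1%) and 2 higher (6.45%), with a median log2 difference of -0.34. Of all measured genes 6.66% were lower and 6.28% higher. Bhlhe41, a circadian repressor, measured 5.81 RPKM in C/C against 0.584 RPKM in Δ/Δ, 9.95-fold lower. Adm, the peptide hormone adrenomedullin, measured 3.72 and 0.240 RPKM, 15.5-fold lower. Ak4, a mitochondrial adenylate kinase, went from 3.57 to 0.597 RPKM and Ccng2, an atypical cyclin, from 119 to 36.3 RPKM. Of these, Bhlhe41, Adm and Ak4 reached 1 RPKM in C/C alone, so they passed the filter only through the library where they are higher. Cxcr4, the receptor that holds B cell precursors in the marrow, went from 315 to 110 RPKM. The higher ones were the transferrin receptor gene Tfrc (68.6 and 177 RPKM) and the haem oxygenase gene Hmox1 (0.613 and 1.82 RPKM). Hmox1 reached 1 RPKM in Δ/Δ alone. Erythroid and megakaryocyte markers (9.31 and 77.8 RPKM in sum) and neutrophil and macrophage markers (32.3 and 255 RPKM) were higher in the same library. Their part in the Tfrc and Hmox1 values was not tested. These 3 genes, Cxcr4, Tfrc and Hmox1, complete the count and were named after their values were seen.

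The oxygen sensing machinery had 0 lower genes of 14 measured, beside 6.66% of all measured genes, and a median of -0.14. It had 1 higher gene (7.14%), beside 6.28% of all. That gene was Eloc, elongin C of the VHL ligase (8.10 RPKM in C/C against 30.5 RPKM in Δ/Δ, ratio 3.76, interval 3.46 to 4.10). Its partner Elob, named after its values were seen, measured 218 and 211 RPKM. Egln2, the third prolyl hydroxylase gene, measured 45.9 and 27.3 RPKM, Vhl 14.5 and 9.71 RPKM and the ligase scaffold gene Cul2 9.12 and 14.9 RPKM. The HIF alpha genes Epas1 and Hif3a and the ARNT relative Arnt2 were under 1 RPKM in both libraries.

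Of 33 other glycolysis genes 19 were measured, with 1 higher (5.26%) and 3 lower (15.8%) and a median of -0.17. Of all measured genes 6.28% were higher and 6.66% lower. Slc2a8, a glucose transporter gene of inner membranes, measured 6.10 and 0.875 RPKM, 6.97-fold lower. Pgam2, the muscle mutase gene, measured 3.96 and 1.36 RPKM, and Gapdhs, the sperm dehydrogenase gene, 2.27 and 0.836 RPKM. Gapdhs was within the rule in its longest coding transcript (log2 difference -0.83). The higher gene was Hk3, given above, which reached 1 RPKM in Δ/Δ alone. Slc2a8 and Gapdhs reached it in C/C alone.

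Routes that branch from glycolysis had no gene past the rule, which 12.9% of all measured genes passed in either direction. In the pentose phosphate pathway, which makes NADPH and ribose, 0 of 10 passed, with a median of 0.15. The largest differences there were those of H6pd (7.503 and 10.6 RPKM), Prps1 (17.7 and 24.5 RPKM), Prps2 (52.8 and 71.0 RPKM) and Pgls (580 and 438 RPKM). Prps2 was read from a processed transcript of 599 bases (ratio 1.34), and its longest coding transcript gave a ratio of 1.77. Prps1 and Prps2 lie on the X chromosome, as does G6pdx (ratio 0.955), and the part of sex in their values was not tested. In pyruvate dehydrogenase, the citric acid cycle and the NADH shuttles 0 of 27 passed, with a median of 0.08. Dld (17.4 and 28.9 RPKM), Sucla2 (23.8 and 36.9 RPKM), Idh3a (17.1 and 24.6 RPKM) and Got1 (22.9 and 31.4 RPKM) stood furthest from 0. These medians lie above, and those of the HIF lists below, the median of -0.09 for all measured genes; the difference between lists was not tested.

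Among 19 measured regulators of glucose uptake and glycolysis 0 were higher and 2 lower (10.5%), and their median was -0.36. Of all measured genes 6.28% were higher and 6.66% lower. Cnr2, a cannabinoid receptor gene of B cells, measured 8.96 RPKM in C/C against 1.26 RPKM in Δ/Δ, 7.12-fold lower. Mxd3, of the MAX network, went from 57.8 to 22.1 RPKM. Txnip, whose product limits glucose uptake, measured 158 and 79.1 RPKM, just short of the rule at -0.99. The coactivator gene Ppargc1a, at 1.76 and 0.641 RPKM, was also just short of it. Ppargc1a reached 1 RPKM in C/C alone, so it passed the filter only through the library where it is higher. Of the 12 pro-B cell markers 4 were lower in the same library, and their part in these values was not tested.

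**Figure D5:**
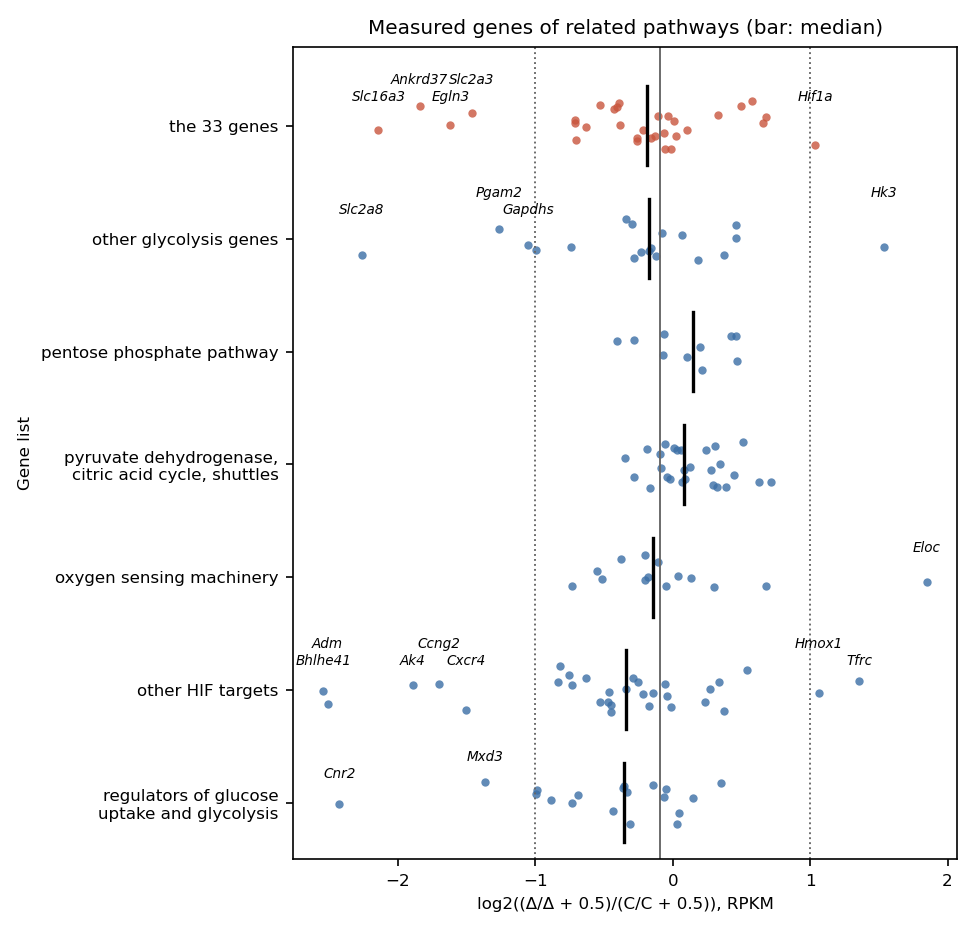
log2 difference between the libraries for each measured gene (points) of the 33 genes and of 6 related lists, with the median of each list as a black bar. The grey line is the median of all measured genes, at -0.09, and dotted lines mark the size rule. No gene of the pentose phosphate and citric acid cycle lists lies beyond them, where 12.9% of all measured genes do.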

How the data were processed

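RNA freed of ribosomal RNA was sequenced as 101 bp paired-end reads, per the labels' protocols. The authors deposited 1 RPKM value per Ensembl transcript and library, rounded to 3 decimals. Tools named without roles are TopHat2 2.0.9 and bedtools, per the submitters' processing notes. Those notes list both mm9 and mm10; the build behind the table is not given in the sources used here. Column Wt was taken as C/C, and column Del as Δ/Δ.

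Of 93615 transcripts, 89571 (95.7%) matched GENCODE M21 (GRCm38), whose coordinates are printed. Each gene is represented by its transcript with the highest mean RPKM. RPKM times transcript length was a whole multiple of a step, within 0.1 read for 96.3% (C/C) and 95.6% (Δ/Δ) of low values, which gave the depths. Read pairs count as 1 fragment in intervals. Reads shared by transcripts were counted for each: 10 Hk1 transcripts of 254 to 942 bases all held 370 reads in C/C.

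With 1 library per group a 2-fold size rule on log2 values (0.5 RPKM added) replaced a test, and depth recovery, rule and intervals were tested on simulated data. Every one of the 33 genes is named. Of each related list the text names up to 4 measured genes of largest difference, and of the leading marker lists the 3 most abundant. The genes and lists were chosen with earlier results of these data known. Promoter sequences are from RefSeq. Python 3.11.15, pandas 2.3.3 and scipy 1.17.1 were used.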

Additional observations from a re-analysis of the deposited data

How the results depend on the processing

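The count of 4 lower genes held with a pseudocount of 0.1 or 1 RPKM, without the filter on low values, after centring, with a common RPKM sum, and from coding transcripts, and it was 3 with a filter at 5 RPKM. The count of 1 higher gene, Hif1a, became 0 with the longest coding transcript and 0 with the median over coding transcripts. A 1.5-fold threshold gave 3 higher and 8 lower genes, beside 12.6% and 16.7% of all measured genes. The median log2 difference of -0.19 became -0.092 after centring on all measured genes and -0.10 when both libraries were set to 1 RPKM sum that leaves out the 20 top genes. Over the 6 alternatives that give each gene a value, 31 of 32 measured genes kept their call and 28 of 33 genes kept their sign. No paired analysis was possible because each group has 1 library. Depth gave a limit of 0.00879 RPKM (C/C) and 0.00776 RPKM (Δ/Δ) for 3 reads over 2 kilobases, and Eno2 and Ldhb had the widest counting intervals.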

Other observations

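Aldoa has a transcript that starts apart from the others. ENSMUST00000153686 (chr7:126800790-126809108, GRCm38) lies wholly upstream of the other 10 Aldoa transcripts and shares exons with no other annotated gene. It measured 2.80 RPKM in C/C against 1.26 RPKM in Δ/Δ (ratio 0.448, 382 and 194 reads). The other 10 Aldoa transcripts gave ratios of 0.960 to 1.04. It was singled out after its values were seen.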
